A study of Homo sapiens with 6 samples.

Results

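The extracellular matrix genes described here encode collagens, matrix glycoproteins and the enzymes and chaperone that modify collagen. The 44 genes were chosen by symbol, with earlier results of these data known, so their shares are not independent of these data. Each matched 1 of the 57905 gene identifiers of the count table. RNA came from A549, an adenocarcinoma line of human lung epithelial origin, in 6 samples. In 3 samples the cells were given miR-19a, and in the other 3 a control microRNA called miR-NC. Both groups were transfected with a lipid reagent at 25 nM, and the harvest time is given as 24 h. The effect of miR-19a is therefore always read against cells that were also transfected. The labels do not name the chemical form of either microRNA and do not tell if replicates came from different cultures. The p-values therefore rest on the spread among the 3 samples of each group, part or all of which may be technical.

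Collagens assemble as helices of 3 chains inside the endoplasmic reticulum. Prolines and lysines are hydroxylated there, the chaperone HSP47 binds the folded helix, and after secretion lysyl oxidases cross-link the chains. Fibrillar collagens form the cables of connective tissue, whereas collagen IV, laminins, nidogens and the proteoglycans perlecan and agrin form the basement membrane, the sheet on which epithelial cells rest. MicroRNAs lower messenger RNAs that pair with their seed, bases 2 to 8 of the mature strand. The miR-29 family is known in many tissues for its many targets among collagen and other matrix genes, whereas miR-19a belongs to the cluster encoded by MIR17HG. The mature strands follow (RefSeq, GRCh38.p14), with the seed in capitals. miR-19a is shown as the agent given to the cells, and miR-29 as the family with matches in many of these genes.
hsa-miR-19a-3p: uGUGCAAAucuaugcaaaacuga
hsa-miR-29a-3p: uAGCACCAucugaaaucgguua
hsa-miR-29b-3p: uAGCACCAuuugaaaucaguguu
hsa-miR-29c-3p: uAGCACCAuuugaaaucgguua
The 3 miR-29 strands share 1 seed, which differs from that of miR-19a.

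Total counts ranged from 15699037 to 17957932 per library. Pairs of libraries within a group differed by a chi-square per gene of 1.59 to 4.15, and pairs across the groups by 26.6 to 30.2. No library was thus a copy of another. These values cannot tell if libraries of a group are technical repeats. The keratins and other epithelial markers summed to 1722 to 1755 FPKM (fragments scaled to gene length and to library size, the authors' scale, used here to compare levels between genes) in the miR-NC libraries and to 1849 to 1930 in the miR-19a libraries, although EPCAM was low at 0.38 to 0.93 FPKM. Since many matrix genes are typical of fibroblasts, their markers were examined as well. The 8 fibroblast markers summed to 0.95 to 1.07 FPKM in miR-NC and 0.59 to 0.89 in miR-19a. Their highest member was THY1, POSTN was at 0 in all 6 libraries, and DCN, PDGFRA, PDGFRB and FAP did not pass 0.04 in any. Of the 3 endothelial and 4 immune markers measured, none passed 0.23 FPKM. ACTA2, a marker of smooth muscle, stood at 5.32 to 7.22 FPKM and did not pass (log2 fold change -0.15, SE 0.0896, adjusted p = 0.168).

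Most of these matrix genes were higher in cells given miR-19a. Genes with a mean of at least 1 FPKM over the 6 libraries were tested, and 39 of the 44 met this limit. With edgeR's quasi-likelihood test, 32 of the 39 rose, 3 fell and 4 did not pass an adjusted p of 0.05. Among all 12452 genes tested 48.4% passed, with 24.9% higher and 23.5% lower. The median log2 fold change was 0.45 over the 39 genes and -0.004 over all genes tested. COL1A1 and SPARC met the limit through their level in miR-19a alone, and without them 30 of 37 rose and 3 fell, with a median of 0.42. An increase of at least 1 on the log2 scale was seen for 7 of the 39, against 1.04% of all genes tested, and of at least 0.5 for 17, against 6.26%. Without COL1A1 and SPARC these counts were 5 and 15 of 37. In counts per library total, scaled by TMM, the miR-19a libraries of 32 of the 39 lay wholly above the miR-NC libraries (27.6% of all genes), in 4 wholly below (26.4%), and in 3 the groups overlapped. In bulk RNA, fewer cells of a kind and less RNA per cell cannot be told apart.

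**Figure D1:**
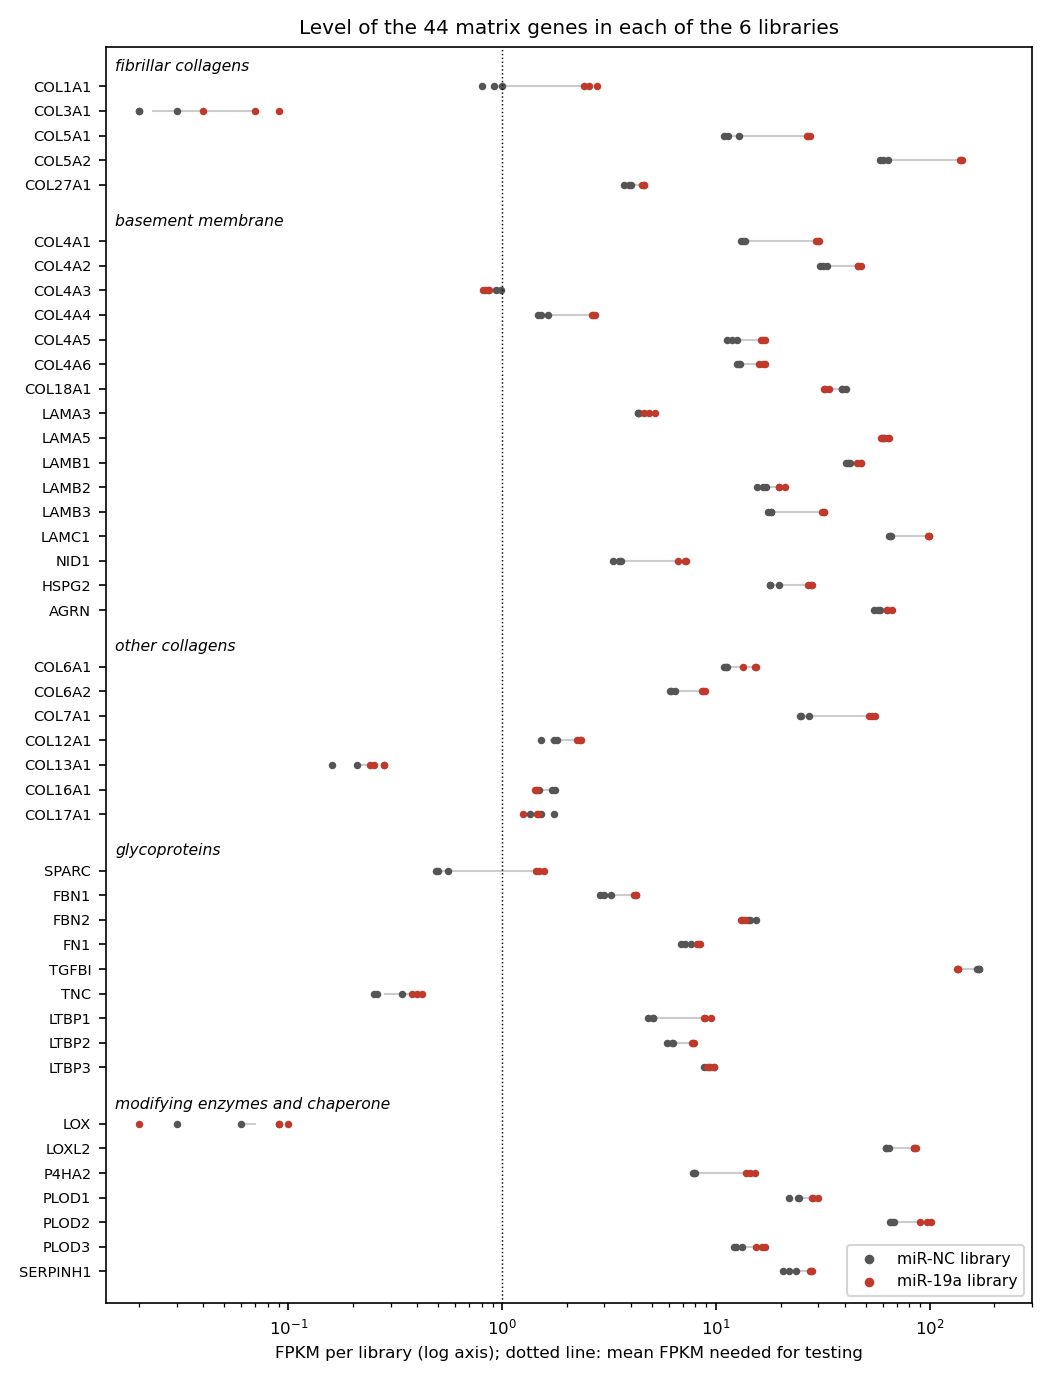
FPKM (log axis) of the 44 matrix genes in the 3 miR-NC libraries (grey points) and the 3 miR-19a libraries (red points); grey lines join the group means and the dotted line marks 1 FPKM. COL5A2 stood at 58.1 to 63.9 FPKM in miR-NC and at 138 to 142 in miR-19a, while TGFBI moved the other way and COL3A1, COL4A3, COL13A1, TNC and LOX lay left of the line on average.

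Fibrillar collagens showed the steepest median of the 5 groups, at 1.22 on the log2 scale. All 4 of the tested members rose, against 24.9% of all genes tested. Of the 4, COL1A1 met the limit for testing through miR-19a alone. COL5A2 encodes the second chain of collagen V, a minor fibrillar collagen that sets the width of collagen I fibrils. Its FPKM values were 60.2, 63.9 and 58.1 in miR-NC replicates 1 to 3 and 142, 138 and 140.1 in miR-19a replicates 1 to 3. The groups did not overlap, and the change was 1.22 (SE 0.0375, adjusted p = 1.5e-38), or 2.33-fold. COL5A1, the partner chain, stood at 11.4, 12.8 and 10.9 FPKM in miR-NC and at 26.8, 26.7 and 27.4 in miR-19a, also a change of 1.22 (SE 0.0431, adjusted p = 2.3e-35). Both chains of collagen V were thus about as much higher, with COL5A2 the more abundant transcript in each of the 6 libraries.

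COL1A1, the main chain of collagen I, was low in these epithelial cells. It had 149, 159 and 124 counts in the miR-NC libraries and 407, 407 and 487 in the miR-19a libraries. This corresponds to 0.903 ± 0.1 and 2.57 ± 0.177 FPKM (mean ± SD, n = 3 per group) and a change of 1.52 on the log2 scale (SE 0.0947, adjusted p = 2.6e-22), or 0.91 with limma on log2(FPKM + 1), which understates changes of low genes. COL1A2, the gene of the other collagen I chain, did not pass 0.02 FPKM in any library. COL3A1, the chain of collagen III, had 2, 2 and 3 counts in miR-NC and 10, 5 and 8 in miR-19a, too few to be tested under the filter, and with no filter it did not pass (1.61, SE 0.721, adjusted p = 0.105). COL27A1, a fibrillar collagen of cartilage, was expressed at 3.88 ± 0.147 FPKM in miR-NC and 4.57 ± 0.0529 in miR-19a, a small rise of 0.25 (SE 0.0537, adjusted p = 6.6e-05).

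Among the basement membrane genes 13 of 15 tested rose and 1 fell, with a median of 0.50. Among all genes tested 24.9% were higher and 23.5% lower. Collagen IV is made from 6 genes that lie as 3 pairs, each pair head to head around a shared start region on chromosomes 13, 2 and X. COL4A1 and COL4A2 encode the chains found in nearly all basement membranes. COL4A1 stood at 13.1, 13.3 and 13.7 FPKM in miR-NC and at 30.1, 29.9 and 29.3 in miR-19a, a change of 1.17 (SE 0.0411, adjusted p = 1.9e-35). COL4A2 went from 30.6, 33.1 and 31.6 to 46.2, 45.8 and 47.5 FPKM, a change of 0.57 (SE 0.0384, adjusted p = 1.2e-20). COL4A2 was the more abundant of the pair in all 6 libraries, and the gap between them was narrower in miR-19a. The log2 ratio of COL4A1 to COL4A2 counts was -1.22, -1.32 and -1.21 in miR-NC and -0.62, -0.62 and -0.70 in miR-19a, a difference of 0.60.

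COL4A3 and COL4A4, which encode chains of specialised membranes such as that of the glomerulus, did not move together. COL4A4 went from 1.63, 1.52 and 1.47 FPKM to 2.64, 2.71 and 2.66, a change of 0.81 (SE 0.0807, adjusted p = 1.8e-13), or 0.53 with limma on log2(FPKM + 1). COL4A3 lay just under the limit for testing, with 150, 137 and 123 counts in miR-NC and 123, 127 and 143 in miR-19a. These ranges overlap, and with a limit of 0.1 FPKM its change was -0.12 (SE 0.124, adjusted p = 0.514). The log2 ratio of COL4A3 to COL4A4 was -0.84, -0.83 and -0.90 in miR-NC and -1.80, -1.86 and -1.73 in miR-19a, a difference of -0.94. COL4A5 and COL4A6, which lie on chromosome X, both rose, by 0.50 (SE 0.0443) and 0.38 (SE 0.0418), and their ratio moved by 0.12. For each of the 3 pairs the ratio gave an exact two-sided permutation p of 0.1 (0.1 adjusted over the 3 pairs), which is the smallest that 3 against 3 samples can give.

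**Figure D2:**
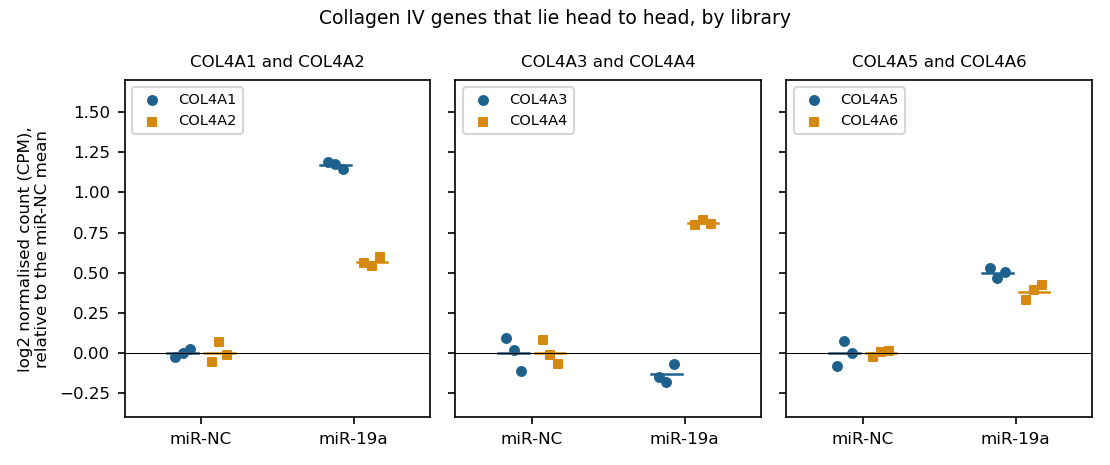
log2 TMM-scaled counts (per library total) of the 6 collagen IV genes in each library, relative to the mean of the 3 miR-NC libraries; points are libraries and bars are group means. COL4A1, COL4A2, COL4A4, COL4A5 and COL4A6 lay above 0 in all 3 miR-19a libraries, and COL4A3 below 0.

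The start of COL4A1 lies 127 bases from that of COL4A2 on the other strand, against 419 bases for COL4A3 and COL4A4 and 380 for COL4A5 and COL4A6 (RefSeq, GRCh38.p14). The window of 250 bases before to 50 after the COL4A1 start is printed because it holds the starts of both genes of the pair with the highest collagen IV levels. It is chr13:110307108-110307407, read on the minus strand, with CCAAT and GGGCGG, each sought on both strands and not overlapping each other, in capitals.
COL4A1 start region: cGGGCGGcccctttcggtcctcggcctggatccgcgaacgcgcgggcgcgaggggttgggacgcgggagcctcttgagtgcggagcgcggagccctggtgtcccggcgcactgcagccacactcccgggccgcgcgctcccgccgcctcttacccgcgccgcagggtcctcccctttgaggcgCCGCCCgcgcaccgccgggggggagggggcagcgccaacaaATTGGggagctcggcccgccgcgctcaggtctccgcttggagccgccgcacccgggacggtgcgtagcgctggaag
It holds 1 CCAAT and 2 GGGCGG, and no TATAAA. Of 27305 RefSeq promoter windows of this length, 35.7% held CCAAT, 44.6% GGGCGG and 12% TATAAA on either strand. Of the 38 matrix genes with a window, 12, 28 and 4 did. These are matches of letters and not evidence of binding.

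Laminins are built from an alpha, a beta and a gamma chain. LAMC1, the gamma chain of most laminins, rose from 64.4, 65.8 and 65.2 FPKM to 97.4, 99.2 and 98.9, a change of 0.61 (SE 0.0356, adjusted p = 7.5e-24). LAMB3, a chain of the laminin that anchors epithelia, rose from 18.1, 17.96 and 17.5 to 31.2, 32.0 and 32.0 FPKM (0.85, SE 0.0441, adjusted p = 3.1e-26). LAMA3, the alpha chain of the same laminin, was far lower at 4.33 ± 0.03 and 4.88 ± 0.305 FPKM and changed by 0.19 (SE 0.0538, adjusted p = 0.00253). The LAMA3 call ended without miR-19a replicate 2 (0.14, adjusted p = 0.0543). It also ended with limma on log2(FPKM + 1) (adjusted p = 0.0621) and on log2(FPKM + 0.1) (adjusted p = 0.0583). The range over 15 alternatives was 0.00127 to 0.0621. LAMB1 rose by 0.20 (SE 0.0371) and LAMB2 by 0.31 (SE 0.0446). LAMA5, the more abundant of both alpha chains tested, stood at 61.4 FPKM in both groups and did not pass (0.02, SE 0.0371, adjusted p = 0.762), with a sign that changed with the scaling (-0.0006 with library totals alone).

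NID1, nidogen, which bridges laminin and collagen IV, went from 3.29, 3.58 and 3.53 FPKM to 7.2, 6.65 and 7.15, a change of 1.03 (SE 0.0699, adjusted p = 1.4e-20). Its paralog NID2, not among the 44, rose by 0.95 (SE 0.0492). HSPG2 encodes perlecan, a heparan sulfate proteoglycan. It rose by 0.59 (SE 0.0388, adjusted p = 2.5e-21), from 18.5 ± 1.07 to 27.6 ± 0.723 FPKM. AGRN, agrin, was among the more abundant at 56.9 ± 1.83 FPKM and rose by 0.19 (SE 0.0367) to 64.2 ± 2.23. COL18A1, whose product is a proteoglycan of basement membranes and the source of endostatin, was the exception. It stood at 38.8, 40.7 and 38.8 FPKM in miR-NC and at 32.4, 32.1 and 33.9 in miR-19a, a fall with no overlap (-0.25, SE 0.0380, adjusted p = 7.6e-08).

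Of the other collagens 4 of 6 tested rose and none fell, with a median of 0.43, against 24.9% and 23.5% of all genes tested. COL7A1 encodes the anchoring fibrils that fasten the epithelial basement membrane to the tissue below. It stood at 24.8, 27.1 and 24.7 FPKM in miR-NC and at 53.5, 52.1 and 55.3 in miR-19a, a change of 1.09 (SE 0.0389, adjusted p = 5.4e-35). COL6A1 and COL6A2, chains of the beaded collagen VI, rose by 0.42 (SE 0.0534) and 0.50 (SE 0.0611), while COL6A3, the gene of the usual partner chain, did not pass 0.02 FPKM in any library. COL12A1, which coats collagen fibrils, rose by 0.45 (SE 0.0760) from 1.69 ± 0.149 FPKM, or by 0.29 with limma on log2(FPKM + 1). COL16A1 did not pass at -0.19 (SE 0.0950, adjusted p = 0.0899), although its miR-19a libraries (1.42 to 1.45 FPKM) lay below those of miR-NC (1.49 to 1.77). It did pass without miR-NC replicate 1 (-0.26, adjusted p = 0.0342; range over 15 alternatives 0.0342 to 0.268). COL17A1, a transmembrane collagen of hemidesmosomes, did not pass at -0.13 (SE 0.120, adjusted p = 0.407), and COL13A1, also transmembrane, was under the limit at 0.217 ± 0.0603 and 0.257 ± 0.0208 FPKM.

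**Figure D3:**
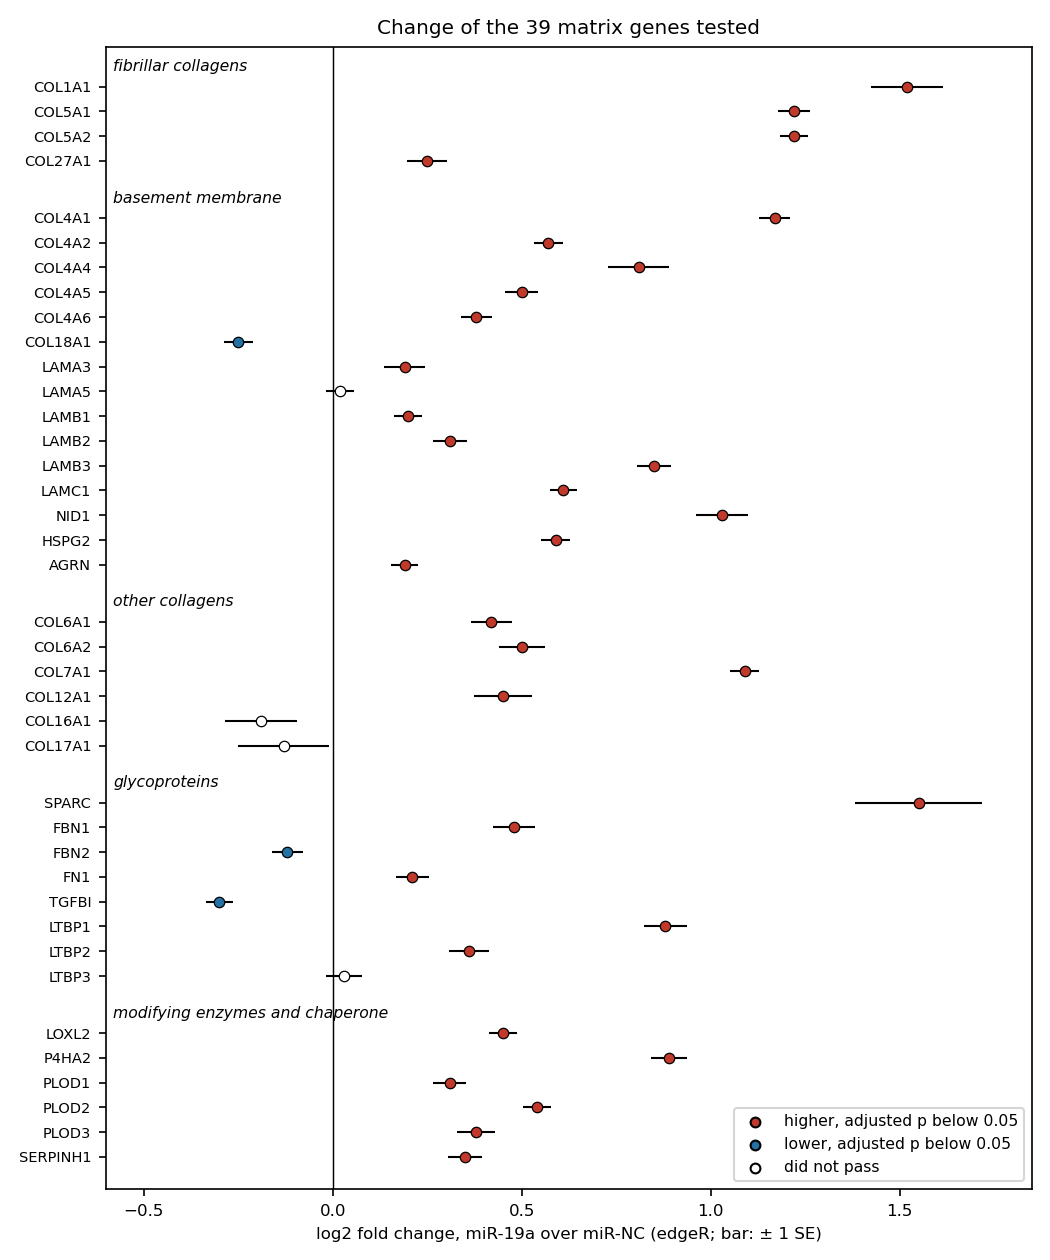
log2 fold change of miR-19a over miR-NC for the 39 matrix genes tested, with bars of 1 SE from edgeR's quasi-likelihood test; filled points passed an adjusted p of 0.05. Points lie between -0.30 (TGFBI) and 1.55 (SPARC), and 32 of the 39 are called higher, against 24.9% of all genes tested.

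Of the 8 matrix glycoproteins tested 5 rose and 2 fell, with a median of 0.29, against 24.9% higher and 23.5% lower among all genes tested. Of the 5, SPARC met the limit for testing through miR-19a alone. SPARC, a collagen-binding protein that assists the deposition of collagen, had 45, 39 and 37 counts in miR-NC and 117, 120 and 135 in miR-19a. The groups did not overlap, at 0.517 ± 0.0379 and 1.49 ± 0.0611 FPKM, and the change was 1.55 (SE 0.169, adjusted p = 5.0e-12). Its size depended on the scale: 0.72 with limma on log2(FPKM + 1). TGFBI, a secreted adhesion protein induced by TGF-beta, was the most abundant of the 44 genes in miR-NC. It fell from 169, 169 and 167 FPKM to 135, 134 and 136 (-0.30, SE 0.0350, adjusted p = 4.2e-11). In the miR-19a libraries COL5A2, at 138 FPKM or more, stood above TGFBI, at 136 or less, whereas in miR-NC it had stood far below.

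The fibrillins form the microfibrils that carry elastin and bind latent TGF-beta. FBN1 rose from 3.02 ± 0.176 to 4.18 ± 0.0529 FPKM (0.48, SE 0.0552, adjusted p = 1.9e-11). FBN2 was the more abundant at 14.6 ± 0.695 FPKM and fell slightly to 13.3 ± 0.303 (-0.12, SE 0.0409, adjusted p = 0.0122). That call ended without miR-19a replicate 1 (-0.11, adjusted p = 0.0744). It also ended once miR-NC replicate 2 was left out (-0.08, adjusted p = 0.119), in a range over 16 alternatives of 0.00446 to 0.119. The latent TGF-beta binding proteins differed among themselves. LTBP1 rose from 4.81, 5.07 and 5.07 FPKM to 8.79, 8.86 and 9.45 (0.88, SE 0.0576, adjusted p = 3.2e-21) and LTBP2 by 0.36 (SE 0.0522), whereas LTBP3 overlapped between groups at 9.28 ± 0.51 and 9.41 ± 0.355 FPKM (0.03, SE 0.0477, adjusted p = 0.581). FN1, fibronectin, rose by 0.21 (SE 0.0437, adjusted p = 3.2e-05) from 7.21 ± 0.411 FPKM. TNC, tenascin C, was under the limit with 36 to 47 counts in miR-NC and 57 to 65 in miR-19a. In the fits with lower limits it passed, with 0.53 (SE 0.206, adjusted p = 0.0327) at 0.1 FPKM.

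All 6 tested members of the collagen-modifying group rose, with a median of 0.41, against 24.9% higher among all genes tested. P4HA2, a catalytic subunit of prolyl 4-hydroxylase, went from 7.88, 7.96 and 7.81 FPKM to 15.3, 14.3 and 13.7, a change of 0.89 (SE 0.0479, adjusted p = 2.0e-25). The lysyl hydroxylases prepare lysines for cross-linking and glycosylation. PLOD2, the one that acts on the collagen telopeptides, was the most abundant of them and rose from 64.7, 66.7 and 67.9 to 96.6, 100.7 and 89.8 FPKM (0.54, SE 0.0378, adjusted p = 5.3e-20). PLOD1 rose by 0.31 (SE 0.0438) and PLOD3 by 0.38 (SE 0.0501). LOXL2, a secreted lysyl oxidase that cross-links collagen IV, rose from 62.9 ± 0.978 to 84.7 ± 1.33 FPKM (0.45, SE 0.0365, adjusted p = 6.5e-17). SERPINH1, which encodes HSP47, rose by 0.35 (SE 0.0447, adjusted p = 5.0e-10), from 20.6, 21.9 and 23.6 to 27.6, 27.8 and 28.1 FPKM. LOX itself had 2 to 10 counts per library in either group, and with no filter its change of 0.25 had an SE of 0.613 (adjusted p = 0.828), so that no difference was detectable at this depth.

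Other genes of collagen processing were followed as a list. Of 17 tested 10 rose and 2 fell, with a median of 0.30, against 24.9% higher and 23.5% lower among all genes tested. BMP1, the protease that removes the C-terminal propeptide of fibrillar procollagens, rose from 14.2, 15.2 and 14.3 to 25.0, 25.7 and 27.2 FPKM (0.85, SE 0.0430, adjusted p = 6.9e-27). COLGALT1, which adds galactose to hydroxylysine, rose by 0.57 (SE 0.0437, adjusted p = 2.7e-18). The prolyl isomerase FKBP10, which acts with PLOD2 on telopeptides, fell by 0.27 (SE 0.0422, adjusted p = 1.8e-07). P3H3 also fell, by 0.22 (SE 0.0786, adjusted p = 0.0146), with 1 miR-19a library (5.09 FPKM) close to the lowest of miR-NC (5.16). In TMM-scaled counts the P3H3 groups overlapped. Leaving out miR-19a replicate 1, miR-19a replicate 2 or miR-NC replicate 1 ended this call (adjusted p = 0.082, 0.0877 and 0.0603), within a range over 16 alternatives of 0.00275 to 0.0877.

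Of 10 tested genes for export of procollagen from the endoplasmic reticulum 1 rose and 2 fell, with a median of 0.00. Among all genes tested 24.9% rose and 23.5% fell. MIA3, the receptor TANGO1 that loads procollagen into carriers, rose by 0.44 (SE 0.0604, adjusted p = 4.8e-09). CREB3L2, a transcription factor of secretory genes, fell by 0.32 (SE 0.0535, adjusted p = 6.5e-07). SEC24D, a coat subunit, fell by 0.18 (SE 0.0728, adjusted p = 0.0393), a call that ended in 8 of 15 alternatives (range 0.0222 to 0.220), among them DESeq2 (0.0993) and the fits without miR-19a replicate 1 (0.220), miR-NC replicate 1 (0.110) and miR-NC replicate 2 (0.125). The coat genes SEC13, SEC23A and SEC31A had changes of 0.04, -0.02 and 0.01 and did not pass.

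Of 24 further collagen, laminin and nidogen genes 3 met the limit, COL5A3 and NID2 among them. All 3 rose, against 24.9% of all genes tested. COL5A3, a further chain of collagen V, stood at 0.62, 0.91 and 0.66 FPKM in miR-NC and at 2.71, 2.60 and 2.33 in miR-19a, a change of 1.82 (SE 0.122, adjusted p = 7.9e-21), and met the limit through miR-19a alone. Of 22 other glycoproteins and proteoglycans 7 were tested, of which 3 rose and 2 fell (median 0.17), against 24.9% and 23.5% of all genes tested. EFEMP1, a fibulin, rose by 0.65 (SE 0.0404, adjusted p = 2.4e-22) and LTBP4 by 0.23 (SE 0.0421). VCAN, the proteoglycan versican, fell by 0.60 (SE 0.0817, adjusted p = 4.2e-09), with -0.36 by limma on log2(FPKM + 1). SPOCK1, a testican, fell by 0.29 (SE 0.0612).

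Among receptors for these proteins 8 of 13 tested rose and 4 fell, with a median of 0.27, against 24.9% and 23.5% of all genes tested. ITGA5, the alpha chain of the fibronectin receptor, rose from 17.0, 18.99 and 17.1 to 36.0, 36.8 and 36.8 FPKM (1.06, SE 0.0416, adjusted p = 7.6e-33), and ITGAV by 0.79 (SE 0.0379, adjusted p = 4.1e-28). ITGB4, which binds laminin in hemidesmosomes, fell from 31.7, 34.4 and 32.6 to 12.8, 12.5 and 14.6 FPKM (-1.28, SE 0.0458, adjusted p = 4.5e-35). The proteoglycan SDC1, syndecan 1, fell by 1.02 (SE 0.0395, adjusted p = 3.6e-33).

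**Figure D4:**
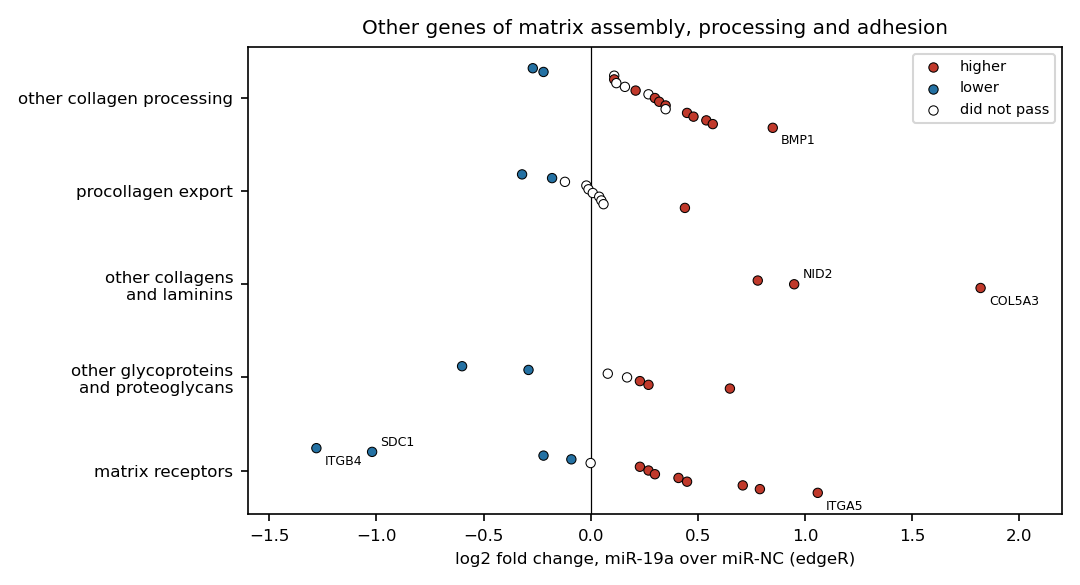
log2 fold change of miR-19a over miR-NC (edgeR) for the tested genes of 5 lists around the 44 matrix genes; each point is a gene, filled where the adjusted p was below 0.05. Receptors lie between -1.28 (ITGB4) and 1.06 (ITGA5), while procollagen export genes lie within -0.32 and 0.44.

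Seed matches were sought in the 3′ UTR of the transcript with the longest coding sequence (GENCODE v29, GRCh38), on the transcript strand. For miR-19a these were the 8mer TTTGCACA, the 7mer-m8 TTTGCAC and the 7mer-A1 TTGCACA, each place counted once under its strongest class. Few matrix genes held one: 4 of 44 (9.09%), against 18.6% of 10552 tested genes with a 3′ UTR. They were SPARC (8mer), TNC (7mer-m8), FBN1 and TGFBI (7mer-A1). SPARC and FBN1 rose and TGFBI fell, while TNC was under the limit for testing. The SPARC match is printed because this gene carries the strongest class and had the highest fold change of the 39. Each match here and below lies within 1 exon, the last of its transcript, and is shown in capitals.
SPARC, 8mer at chr5:151662306-151662313 (minus strand): cacattatgctTTTGCACAcacacacctgt

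For miR-29 the 8mer TGGTGCTA and the 7mer-m8 TGGTGCT were sought. At least 1 was found in 21 of the 44 matrix genes (47.7%), against 14.1% of the 10552 tested genes. The median 3′ UTR length was 1086 bases in the 44 genes and 999 in all. Among 3′ UTRs of up to 500 bases 3 of 11 matrix genes held a match (3.03% of all tested genes of that length), above that and up to 1500 bases 7 of 20 (10.3%) and above that and up to 3000 bases 9 of 11 (18.8%). Beyond that length both matrix genes, COL4A4 and LOX, held one (36.2%). The 6 genes with most matches are shown first, by their 8mers where they have any and otherwise by the first match, with ties broken by mean FPKM. COL5A1 has 4 matches, COL4A4 and LOX 3 each, and COL7A1, FBN1 and COL4A3 have 2 each.
COL5A1, 8mer at chr9:134843382-134843389 (plus strand): tggctctcttgTGGTGCTAtctatctgttt
COL5A1, 8mer at chr9:134843716-134843723 (plus strand): ctgaatgtttgTGGTGCTAatttctgtgtt
COL4A4, 7mer-m8 at chr2:227007237-227007243 (minus strand): aagagatgtcaTGGTGCTcattttggactc
LOX, 7mer-m8 at chr5:122066253-122066259 (minus strand): atggacacatcTGGTGCTgagaaagaaaca
COL7A1, 8mer at chr3:48564322-48564329 (minus strand): gtccctcccctTGGTGCTAgaggcttgtgt
FBN1, 8mer at chr15:48410567-48410574 (minus strand): tggtacctattTGGTGCTAgtaaattttca
COL4A3, 8mer at chr2:227314169-227314176 (plus strand): aagccctagacTGGTGCTAatgtcaaacca

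Matches of 4 more collagen genes with large changes or a partner gene are printed, a choice made after their values were seen. Each has 1 match, which is an 8mer in COL1A1, COL5A2 and COL4A1 and a 7mer-m8 in COL4A2.
COL1A1, 8mer at chr17:50184572-50184579 (minus strand): gagggaatcacTGGTGCTAtagaaattgag
COL5A2, 8mer at chr2:189032873-189032880 (minus strand): tcctttaatgaTGGTGCTAaaattcttcct
COL4A1, 8mer at chr13:110150326-110150333 (minus strand): atgtcacaacaTGGTGCTActtcttcttct
COL4A2, 7mer-m8 at chr13:110512219-110512225 (plus strand): aagggccatttTGGTGCTtattcttaactt
COL4A1, with the 8mer, rose by 1.17 and COL4A2, with the 7mer-m8, by 0.57. This contrast depends on the transcript chosen: in the longest 3′ UTR of each gene COL4A1 had no match, while COL4A2 kept 1. The other pairs gave different values: COL4A5 and COL4A6, each with 1 match of the 8mer class, rose by 0.50 and 0.38. COL4A3, with an 8mer and a 7mer-m8, was at -0.12 under the lower limit, and COL4A4, with 3 matches of the 7mer-m8 class, rose by 0.81.

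The tested matrix genes with a miR-29 match had a higher median fold change than those with none. Over 18 genes with a match the median was 0.60 (17 rose, none fell), and over 21 without it was 0.31 (15 rose, 3 fell). The 18 include COL1A1 and SPARC, each with 1 match, which met the limit for testing through miR-19a alone. Their changes of 1.52 and 1.55 were the highest of the 18, so both raise the counts and medians of genes with a match. Medians without these genes are not given, and how far the contrast rests on them was not tested. By number, the medians were 0.31 with none, 0.58 with 1 match (14 genes) and 0.95 with 2 or more (4 genes). Among all tested genes the same medians were -0.003 (9062 genes), 0.08 (1259) and 0.09 (231), and 26.4%, 37.3% and 41.1% rose. TGFBI, COL18A1 and FBN2, the members that fell, had no match, nor had LTBP1, P4HA2 and LAMB3, which rose by 0.88, 0.89 and 0.85. Of the 18 tested genes with a match, COL16A1, with a 7mer-m8, was the one that did not pass. The 3 genes with a match that lay under the limit for testing, COL3A1, COL4A3 and LOX, did not pass with no filter either (adjusted p = 0.105, 0.589 and 0.828). These medians describe chosen genes and carry no test, and the matches do not show that miR-29 acted on any of them, since levels of mature microRNAs are not analysed here.

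**Figure D5:**
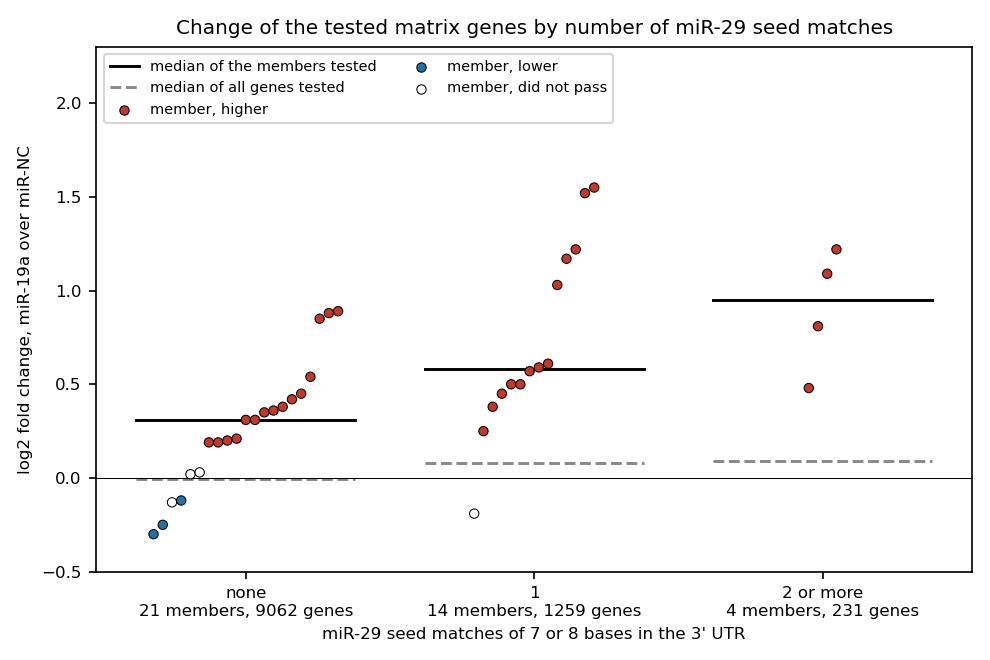
log2 fold change of miR-19a over miR-NC for the 39 tested matrix genes, split by the number of miR-29 seed matches in the 3′ UTR; solid lines are medians of the matrix genes, dashed lines medians of all tested genes. The solid lines stand at 0.31, 0.58 and 0.95 and the dashed lines at -0.003, 0.08 and 0.09. COL1A1 and SPARC, in the middle class, met the limit for testing through miR-19a alone.

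Some of these genes share exon sequence with a neighbour, and no source used here gives the strand setting of the counting. PLOD3 overlaps ZNHIT1 on the other strand, which had 78% as many counts as PLOD3 and a change of -0.06 (SE 0.0527). LAMB1 overlaps DLD (38%, change -0.04, SE 0.0432), LAMA5 overlaps ADRM1 (15.1%, -0.11, SE 0.0430) and COL18A1 overlaps SLC19A1 (9.57%, 0.25, SE 0.0695). LOX, with a mean of 6 counts, overlaps SRFBP1 on the other strand, with 268. LOXL2 overlaps ENTPD4 on the same strand (20.7%, 0.47, SE 0.0472). Their part in the values of PLOD3, LAMB1, LAMA5, COL18A1 and LOXL2 was not tested.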

How the data were processed

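Libraries of poly(A) RNA from 6 samples were read from both ends (150 nt), per the labels' protocols. The submitters' processing notes name bcl2fastq 2.17.1.14. No source used here gives the aligner, counter, annotation, strand or build. The deposited counts are whole numbers without normalization. The FPKM columns, which the authors computed and which carry that name in the header, adjust for gene length and depth and have 2 decimals.

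Tests used the counts of the 12452 genes whose mean FPKM reached 1, with edgeR 4.0.16 (R 4.3.3), TMM factors, a two-sided quasi-likelihood test and Benjamini-Hochberg adjustment over all of them, with a threshold of 0.05. SE was derived by dividing the size of the log2 fold change by the root of the F statistic. The test was checked on simulated counts. limma 3.58.1 and DESeq2 1.42.0 served as alternatives, beside other scalings, filters and libraries left out. Groups were read from the sample titles. The design with no replicate block was used. Fold changes are miR-19a over miR-NC. Depth was 15699037 to 17957932 counts per library. Low counts limit precision for the genes under the filter, and SE and SD cover all spread between libraries.

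A gene name table gave 51996 symbols and GENCODE v29 gave 342, while 5567 identifiers had none. GENCODE v29 also supplied the 3′ UTRs, from the stop codon to the transcript end. Exact permutation tests used scipy 1.17.1 (Python 3.11.15, numpy 2.4.6, pandas 2.3.3). The 44 genes and the lists were chosen with earlier results of these data known, so no p is given over a list. The text names all 44 genes, and of each list at most 2 higher and 2 lower genes with the smallest adjusted p; COL1A2, COL6A3, the coat genes and the overlapping neighbours were named besides these after their values were seen. Some genes of the lists are not reported here by name.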

Additional observations from a re-analysis of the deposited data

How the results depend on the processing

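Of 56 genes followed (the 39 tested matrix genes and 17 of the lists), 49 kept their direction and their side of the threshold in each of up to 16 alternatives. The 7 others were LAMA3, LAMA5, COL16A1, FBN2, LTBP3, P3H3 and SEC24D. LAMA5 (0.02) turned to -0.0006 with library totals alone and to -0.0008 with limma at either pseudocount, and ranged from -0.02 to 0.05 with a library left out. LTBP3 (0.03) ranged from -0.008 to 0.08 with a library left out. Neither passed in any fit. The matrix genes called were 25 to 33 higher and 2 to 4 lower, against 32 and 3. With a replicate block, 32 matrix genes rose and 3 fell and no call of a matrix gene changed. Deviations from the group means had correlations of 0.00848, 0.000547 and -0.031 between same-numbered libraries. No shared effect of the replicate number was thus seen. These values cannot tell if same-numbered samples were handled together.

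The median of the 39 matrix genes was 0.37 with limma on log2(FPKM + 1) against 0.45, since the pseudocount shrinks low genes, and 0.40 to 0.46 with a library left out. With a limit of 5 FPKM fewer genes are tested: 2 fibrillar collagens (against 4), 3 glycoproteins (against 5) and 0 export genes rose, and 1 export gene and 1 other glycoprotein fell (against 2 each). With no filter, a limit of 0.1 FPKM or filterByExpr more are tested, and 2 export genes (against 1), 5 other collagens and laminins (against 3) and 5 other glycoproteins and proteoglycans (against 3) rose; 1 export gene fell with no filter, with 0.1 FPKM and with DESeq2. With a library left out, 0 to 1 other collagens, 1 to 2 glycoproteins, 1 to 2 processing genes and 1 to 2 export genes fell. With the longest 3′ UTR of each gene, 18 matrix genes held a miR-29 match (against 21) and 3 a miR-19a match (against 4). COL4A1, COL6A2 and FBN1 then had no miR-29 match, and FBN1 no miR-19a match. Depth limits COL3A1 and LOX most, with at most 10 counts in any library.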
